A study of Mus musculus with 2 samples.

Results

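In sciatic nerve of adult mice, 204 peaks of the histone mark H3K27me3 were wider than 5 kb. They were chosen by width alone, as the peaks of the authors' list whose end minus start exceeded 5000 bp, and numbered 204 of 6018 in all (3.39%, exact 95% interval 2.947 to 3.879). Width chose them, so their widths, scores and reads are given as a description and nothing about these was tested. The series holds 1 H3K27me3 ChIP library and 1 input library from sciatic nerve. The mice were C57/BL6 males, 8 weeks old, and the labels give no genotype, treatment, replicate, number of animals or sorting of cells. Every value therefore describes 1 nerve preparation, and none could be set against variation between animals. Without expression data the tissue label could not be checked against RNA. None of 33 markers of Schwann cells, fibroblasts and perineurial cells, endothelial and mural cells, immune cells, muscle and adipocytes was overlapped by a broad peak, which allows a share of up to 9.091%. Broad peaks overlapped 0.763% of all protein-coding genes, so that a count of 0 among 33 is near the background. Narrower peaks overlapped 8 of the 33, among them 5 of 13 Schwann cell markers, 1 each of the fibroblast and perineurial (7), endothelial and mural (5) and muscle and adipocyte lists (4), and none of 4 immune markers, where 9.01% of all protein-coding genes were overlapped by narrower peaks only.

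H3K27me3 is placed by the Polycomb repressive complex PRC2, and it marks genes that are kept silent in a cell type although they could be active in others. In vertebrates, PRC2 is known to settle at CpG-rich gene starts that lack activating factors, and the mark can spread from there over whole genes. Genes of embryonic transcription factors are its best known targets. Homeobox genes encode factors with a DNA-binding homeodomain and lay out body regions, organs and neuron types.

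The starts of genes inside the widest peaks are printed first, since CpG content is a property that the choice by width did not use. Each run holds 250 bases before and 50 after a gene start, 5′ to 3′, with every CG in capitals, and comes from RefSeq on GRCm38.p6, the build that mm10 names. The starts are those listed in the table, which for Nkx2-5 and Tfap2a lie 3423 and 3318 bp inside the annotated gene. The genes are those of the 3 widest homeobox peaks and the 3 widest peaks of other transcription factors with a listed start inside the peak. They are Uncx (chr5:139543648-139543947 on the plus strand), which patterns vertebrae, Pax7 (chr4:139832919-139833218 on the minus strand), a factor of muscle satellite cells and neural crest, and Nkx2-5 (chr17:26841516-26841815 on the minus strand), a heart regulator. The others are Tfap2a (chr13:40734871-40735170 on the minus strand), a factor of neural crest and epidermis, Dmrta2 (chr4:109977775-109978074 on the plus strand), which acts in neural progenitors of the forebrain, and Nr2e1 (chr10:42583541-42583840 on the minus strand), an orphan nuclear receptor of neural stem cells.
Uncx: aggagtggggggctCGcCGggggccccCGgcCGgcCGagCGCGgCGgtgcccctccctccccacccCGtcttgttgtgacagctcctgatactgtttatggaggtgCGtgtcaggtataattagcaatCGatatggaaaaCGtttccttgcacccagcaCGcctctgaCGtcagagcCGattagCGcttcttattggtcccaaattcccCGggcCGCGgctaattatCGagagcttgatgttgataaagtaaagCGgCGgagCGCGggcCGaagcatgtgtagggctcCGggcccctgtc
Pax7: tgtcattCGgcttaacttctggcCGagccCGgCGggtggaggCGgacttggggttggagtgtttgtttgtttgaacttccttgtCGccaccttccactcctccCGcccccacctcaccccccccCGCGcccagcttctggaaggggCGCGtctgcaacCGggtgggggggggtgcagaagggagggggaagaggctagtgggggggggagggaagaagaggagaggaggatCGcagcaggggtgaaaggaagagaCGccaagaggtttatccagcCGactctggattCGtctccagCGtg
Nkx2-5: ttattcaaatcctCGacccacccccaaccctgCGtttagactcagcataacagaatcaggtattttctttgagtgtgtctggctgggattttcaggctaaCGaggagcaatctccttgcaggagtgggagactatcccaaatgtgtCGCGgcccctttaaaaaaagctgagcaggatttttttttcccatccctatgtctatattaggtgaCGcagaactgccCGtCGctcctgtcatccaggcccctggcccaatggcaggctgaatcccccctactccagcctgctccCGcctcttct
Tfap2a: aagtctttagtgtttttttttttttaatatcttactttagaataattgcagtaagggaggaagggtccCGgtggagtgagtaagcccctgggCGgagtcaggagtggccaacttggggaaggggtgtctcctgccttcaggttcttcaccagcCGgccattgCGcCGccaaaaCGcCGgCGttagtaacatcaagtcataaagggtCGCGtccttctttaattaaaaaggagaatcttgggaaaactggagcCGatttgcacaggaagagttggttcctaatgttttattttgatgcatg
Dmrta2: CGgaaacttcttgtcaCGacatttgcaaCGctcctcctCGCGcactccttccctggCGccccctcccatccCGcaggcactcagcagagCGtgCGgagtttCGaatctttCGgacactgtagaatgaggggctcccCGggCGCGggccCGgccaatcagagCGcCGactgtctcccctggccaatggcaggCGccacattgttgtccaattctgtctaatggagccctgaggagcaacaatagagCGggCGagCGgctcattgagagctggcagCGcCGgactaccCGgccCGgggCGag
Nr2e1: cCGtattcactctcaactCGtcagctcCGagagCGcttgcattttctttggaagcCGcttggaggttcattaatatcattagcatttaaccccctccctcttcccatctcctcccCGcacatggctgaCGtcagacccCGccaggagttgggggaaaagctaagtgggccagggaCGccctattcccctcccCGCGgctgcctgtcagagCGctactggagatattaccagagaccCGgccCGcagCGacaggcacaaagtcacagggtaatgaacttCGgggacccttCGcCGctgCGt
The Uncx and Dmrta2 starts held 26 CG each, Nr2e1 19, Pax7 17, Tfap2a 11 and Nkx2-5 9. The ratio of observed to expected CpG, which corrects for the number of C and G, was 0.943 at Uncx, 0.859 at Dmrta2, 0.77 at Nr2e1, 0.71 at Tfap2a, 0.581 at Pax7 and 0.466 at Nkx2-5. The 6 starts thus ran from dense to sparse CpG although all lay inside peaks of 13069 bp or more.

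A second set of sequences belongs to microRNA genes, because 3 broad peaks held microRNA genes and no protein-coding gene. Mir9-3 lay in a peak of 11490 bp (chr7:79499038-79510527) and Mir9-1 in a peak of 8194 bp (chr3:88209299-88217492). Both give rise to miR-9, a microRNA of neural progenitors and neurons, and the genes annotated on the opposite strand (Gm51285 and Gm25641) give miR-9b. The seed, bases 2 to 8, is in capitals.
mmu-miR-9-5p: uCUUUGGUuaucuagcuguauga
mmu-miR-9-3p: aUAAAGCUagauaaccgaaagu
mmu-miR-9b-5p: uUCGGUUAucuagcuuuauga
mmu-miR-9b-3p: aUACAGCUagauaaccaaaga
The 4 seeds differ from one another. The third of these peaks, of 7037 bp, held Mir124a-1, whose product miR-124 is abundant in neurons, together with Mir3078, and Mir3093 lay beside Mir9-1 in the same peak.

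The broad peaks covered 1718849 bp, 22.59% of the bases in all peaks. Their median width was 7449 bp (quartiles 5973 and 9930, range 5011 to 26408 bp), against 638 bp for the 5814 other peaks. 51 were wider than 10000 bp. The authors' score per peak has no stated unit. It steps in multiples of 2.5735 (99.53% of scores within 0.05 of a whole multiple), and it was read as reads on the assumption that 1 step is 1 read. The broad peaks then held 49754 reads, 26.86% of the reads in all peaks. The median broad peak held 190.5 reads and all but 1 held at least 100, against a median of 13 reads in the other peaks. Counting error relative to the reads of a peak is thus mostly smaller for these peaks than for the rest of the list. Intervals given for reads cover counting error only.

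Score per kb varied little among the broad peaks. Its median was 65.56 (quartiles 61.11 and 71.64), which is 25.47 reads per kb (quartiles 23.75 and 27.84). The other peaks had a median score per kb of 53.43, or 20.74 reads per kb. A floor of 10 reads per peak and a shortest width of 500 bp, where the lowest possible density is 20 reads per kb, shape the values of the narrow peaks. Over 4 widths, namely 500 bp, above 500 up to 2000 bp, above 2000 up to 5000 bp and above 5000 bp, the medians were 20, 21.02, 22.43 and 25.47 reads per kb. A broad peak stood apart at 884.8 reads per kb (95% Poisson interval 861.1 to 909). It lay over Rn18s-rs5 and AY036118 (chr17:39843042-39849015, 5974 bp, 5286 reads) and is described separately. Without it, the broad peaks held 24.71% of the reads of the remaining list and averaged 25.73 ± 3.346 reads per kb (SD over 203 peaks). Their spread was 3.386 times the variance that counting alone would give at 1 common density, so the densities differed by more than counting error. Across these 203 peaks, width and reads per kb had a Spearman correlation of 0.189, given as a description since both come from the same library and peak call.

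**Figure D1:**
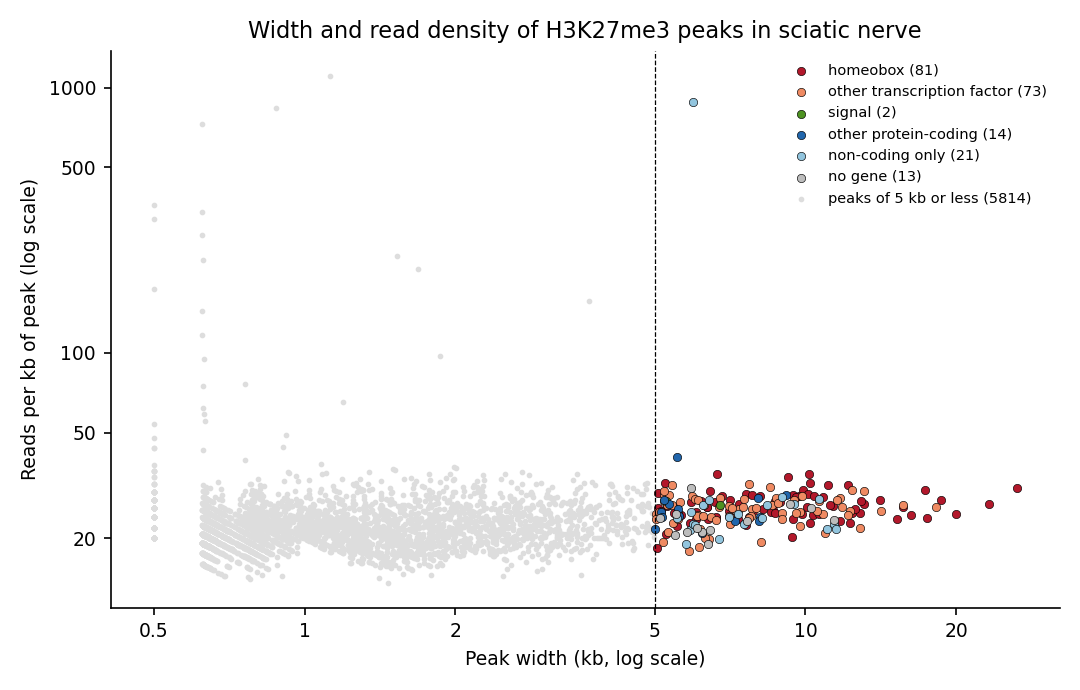
Width (horizontal, kb, log scale) and reads per kb (vertical, log scale) of every peak, 1 point a peak. Broad peaks right of the dashed line at 5 kb are coloured by the class of the genes they overlap, and peaks of 5 kb or less are grey; the broad peaks form a band between 17.92 and 40.51 reads per kb, with the peak over Rn18s-rs5 alone at 884.8.

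Apart from the Rn18s-rs5 peak, the densest broad peak lay over Igf2bp1, which encodes a fetal RNA-binding protein, at 40.51 reads per kb (35.4 to 46.16; 225 reads in 5554 bp). Tlx2, a factor of enteric neurons, followed at 34.89 (30.54 to 39.68) and Isl2, a factor of motor and sensory neurons, at 34.88 (31.34 to 38.71). Tlx3, which specifies excitatory neurons of the dorsal spinal cord, had 34.18, Nkx2-3, a factor of gut and spleen, 32.37 and the blood and hair cell factor Gfi1 32.1. Lhx1, a factor of kidney and head formation, and Tfap2e each had 31.79. Intervals of neighbours in this order overlap, so their order is not resolved. Even the Igf2bp1 interval overlaps that of Gfi1 (28.23 to 36.35), and it lies just above that of Lhx1 (28.71 to 35.12). At the other end, Pax9, a factor of vertebrae and teeth, had 17.92 reads per kb (14.65 to 21.69), the peak over Hoxa3 and Hoxa6 18.43 (14.88 to 22.57), Tfap2b 18.59, a peak over the non-coding genes Gm46091 and Pantr2 19.02 and a peak beside Evx1 19.06. In all, 9 broad peaks lay under 20 reads per kb.

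Most broad peaks overlapped a gene of a transcription factor. Each peak was given the first class found among the genes it overlapped by at least 1 bp, in the order homeobox, other transcription factor, signal, other protein-coding, non-coding only, no gene. Of the 204 peaks, 81 overlapped a homeobox gene (39.71%, exact 95% interval 32.94 to 46.77) and 73 a gene of another transcription factor (35.78%, 29.21 to 42.78), together 75.49%. Of the 5814 other peaks, 4.524% and 7.293% did. Peaks of the 2 classes held 45.27% and 34.07% of the bases in broad peaks, counted over the whole peak and not over the genes. The overlap can be small, as with 37 bp of Sox14. With at least 50% of the gene inside the peak, the shares of peaks were 25% and 14.71%. A further 14 broad peaks (6.863%) overlapped other protein-coding genes only, against 37.82% of the other peaks. Another 21 (10.29%) overlapped only genes that are not protein-coding, and 13 (6.373%) overlapped no gene, against 31.68% of the other peaks. Genes matched by symbol as secreted signals, guidance cues and their receptors or inhibitors gave 2 broad peaks (0.9804%, 0.119 to 3.496), against 6.57% of the other peaks. The symbol patterns can miss members of this class. No test was made of these differences, because gene classes were compared within 1 library and neighbouring peaks share genes.

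A wide peak has more room to overlap a gene, so the classes were also taken from the central 500 bp of each peak, a comparison added after the data were seen. On this measure the homeobox share was 2.475% at 500 bp, 4.173% up to 2000 bp, 10.7% up to 5000 bp and 30.88% above 5000 bp. The share of other transcription factors was 5.23%, 7.663%, 10.55% and 26.96% over the same widths. For signal genes the shares were 4.391%, 8.005%, 8.321% and 0.4902%. The exact intervals of the homeobox share were 24.62 to 37.71% above 5000 bp and 8.465 to 13.28% in the next narrower class, and those of other transcription factors were 21 to 33.6% and 8.332 to 13.12%. These intervals treat neighbouring peaks as independent, which they are not.

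**Figure D2:**
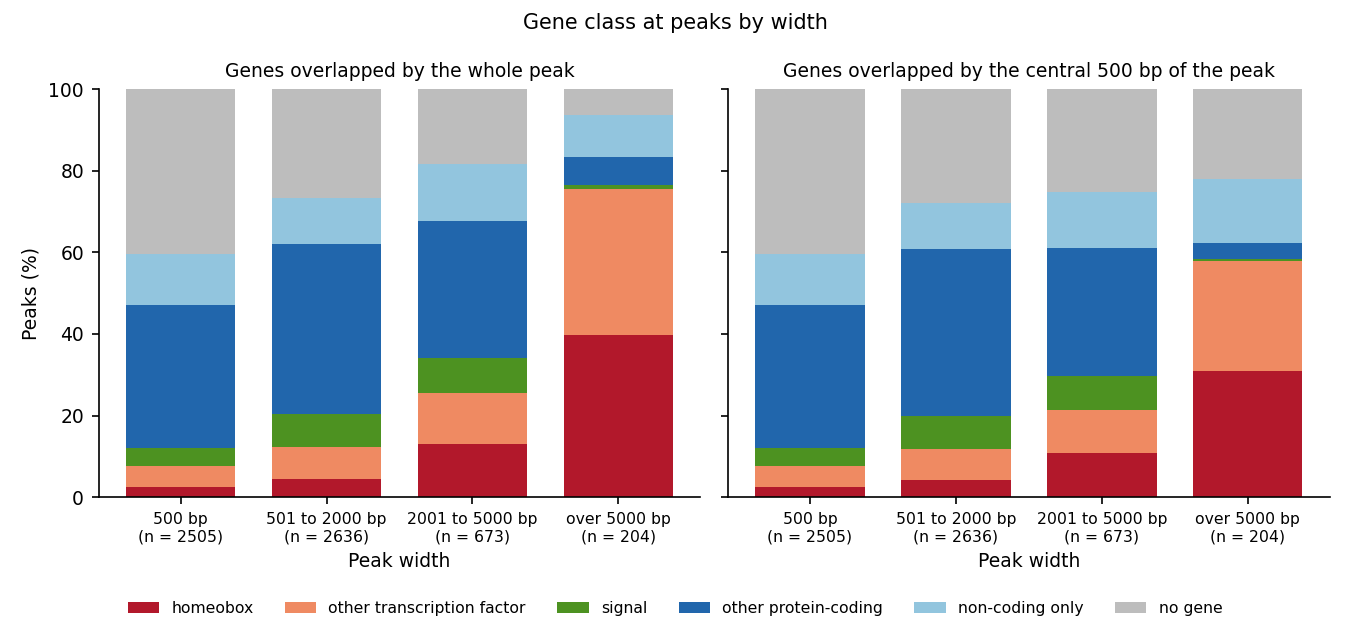
Share of peaks (vertical, %) in each gene class, for 4 widths from left to right, with the number of peaks under each bar. The left panel uses the whole peak and the right panel its central 500 bp; homeobox genes (dark red) make up 39.71% and 30.88% of the peaks over 5000 bp.

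Set the other way round, from genes to peaks, broad peaks overlapped 167 of 21887 protein-coding genes, a background of 0.763%. They overlapped 81 of 258 homeobox genes (31.4%, 25.78 to 37.44), 65 of 1040 genes of other transcription factors (6.25%, 4.856 to 7.897), 2 of 874 signal genes (0.2288%, 0.02772 to 0.8242) and 19 of 19715 other protein-coding genes (0.09637%, 0.05803 to 0.1505). For peaks of any width the background was 9.77%, and the shares were 63.95% of homeobox genes, 21.44% of other transcription factor genes, 29.29% of signal genes and 7.583% of other protein-coding genes. Signal genes thus had a share above that of other transcription factor genes for peaks of any width and below it for broad peaks, with no test made of either difference. Within 10 kb of a broad peak lay 94 homeobox genes, 70 genes of other transcription factors, 2 signal genes and 50 other protein-coding genes, where the background was 0.987%.

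Homeobox families differed in how many members lay under broad peaks. Of 12 LIM homeobox genes, which specify neuron types and limb sides, 9 were overlapped (75%, 42.81 to 94.51), namely Isl2, Lhx1 to Lhx5, Lhx8, Lhx9 and Lmx1b. The exceptions were Isl1, Lhx6 and Lmx1a, all 3 under narrower peaks. Of 46 NK-like genes, which mark organs and neuron types, 25 were overlapped (54.35%). Among them were the heart, thyroid and spinal cord regulators Nkx2-5, Nkx2-1 and Nkx2-2, with Hmx1, Hmx2, Hmx3, Tlx1, Tlx2 and Tlx3. Of 16 ParaHox and Antp-like genes, 8 were overlapped (50%), including En1 and En2, which set up the midbrain and hindbrain, the motor neuron factor Mnx1, and Cdx2 and Pdx1 of the gut and pancreas. Of 6 genes of the sine oculis family, Six2, Six3 and Six6 were overlapped, and of 20 TALE genes, Irx1 to Irx5 (25%). No Meis, Pbx or Tgif gene was. Beside the background of 0.763% over all protein-coding genes, a count of 0 in so few genes is no result. Meis1 lay 4604 bp from a broad peak of 5879 bp. Paired-like genes had 12 of 78 (15.38%), with Pax3, Pax6, Pax7, Otx1, Otx2 (which also has a narrower peak), and Pitx1 among them. Cut, Prospero, HNF and zinc finger homeobox genes had 4 of 26 and POU genes 2 of 15, Pou3f3 and Pou4f1. These groups are small and their intervals wide, so most neighbours in this order do not differ beyond counting error.

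Of 39 Hox genes, 13 (33.33%) were overlapped by a broad peak, in 9 peaks, and another 24 by narrower peaks only. The widest of these Hox peaks held Hoxc12 whole and reached into Hoxc13 (17477 bp). The next held Hoxd12 and reached into Hoxd11 and Hoxd10 (14116 bp). A further broad peak in a Hox cluster overlapped only the antisense gene Hoxa11os.

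**Figure D3:**
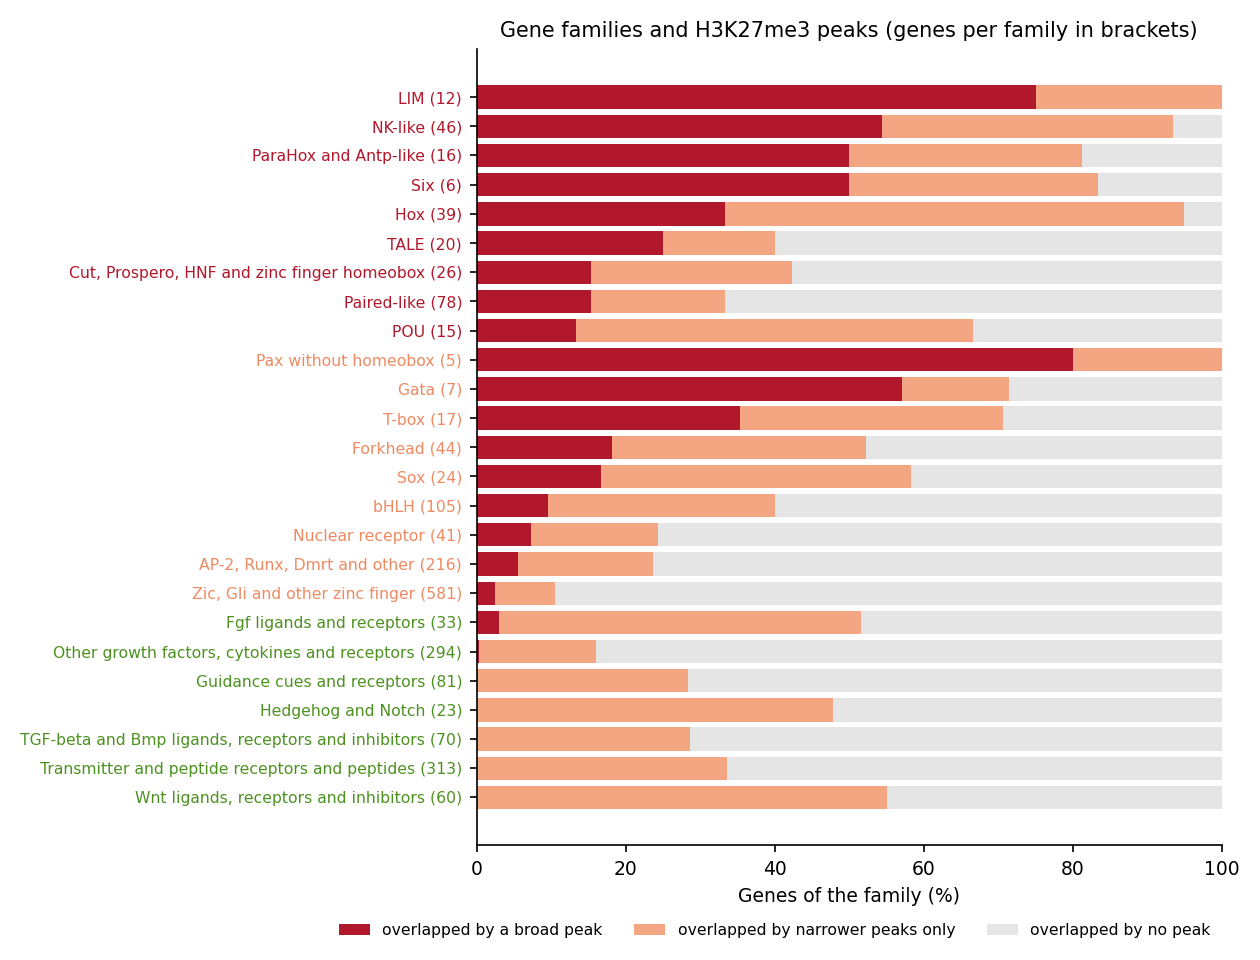
Share of the genes of each family (horizontal, %) that a broad peak overlapped (dark red), that narrower peaks overlapped (light orange) and that no peak overlapped (grey), with homeobox families at the top, other transcription factors in the middle and signal families at the bottom. LIM genes reach 75% in dark red, and Wnt genes have 55% in light orange and none in dark red.

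Among other transcription factors, the shares were highest in small families of organ formation. Of 5 Pax genes that carry no full homeobox, Pax2, Pax5, Pax8 and Pax9 were overlapped. So were Gata2, Gata3, Gata4 and Gata6 of 7 Gata and Trps1 genes, and Eomes, Tbx1, Tbx4, Tbx5, Tbx15 and Tbx20 of 17 T-box genes (35.29%). Forkhead genes had 8 of 44 (18.18%), including Foxa1 and Foxa2 of the endoderm. The Sox and Lef group had 4 of 24 and basic helix-loop-helix genes 10 of 105 (9.524%), among them the neurogenic Neurog2, Neurod1 and Neurod2, the oligodendrocyte lineage factor Olig2, and Hand1 and Hand2 of the heart. In the largest group, zinc finger factors, 14 of 581 were overlapped (2.41%), including Zic2, Wt1, Sall1 and Prdm12. The group of AP-2, Runx, Dmrt and other factors had 12 of 216 (5.556%). Among these were the AP-2 genes Tfap2a, Tfap2b, Tfap2c and Tfap2e, each with a peak of its own.

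Both signal genes under a broad peak encode growth factors. Igf2, an imprinted fetal growth factor gene, had 181 reads in a peak of 6739 bp (chr7:142658065-142664803), 26.86 reads per kb. Fgf8, a morphogen of limb and brain, had 146 reads in a peak of 5274 bp (chr19:45741147-45746420), 27.68 reads per kb. No broad peak overlapped any of 60 Wnt pathway genes (up to 5% allowed), 70 TGF-beta and Bmp pathway genes (up to 4.286%), 23 hedgehog and Notch genes (up to 13.04%), 81 guidance genes (up to 3.704%) or 313 transmitter and peptide receptor and peptide genes (up to 0.9585%). Beside the background of 0.763%, a count of 0 in families of this size is no result about them. Narrower peaks overlapped 33 of the Wnt pathway genes, 20 of the TGF-beta and Bmp genes, 11 of the hedgehog and Notch genes, 23 of the guidance genes and 105 of the transmitter and peptide genes, against 9.01% of all protein-coding genes. A peak over Wnt9b and Wnt3 missed the width limit at 4943 bp.

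The 10 widest broad peaks all belonged to transcription factors. The widest held Uncx whole (chr5:139534489-139560896), with 26408 bp and 821 reads (765.8 to 879.1), or 31.09 reads per kb. The gene itself is 4315 bp long, so the peak spanned far more than the gene. Lbx1, a factor of limb muscle precursors and dorsal spinal neurons, lay whole in a peak of 23306 bp (628 reads, 26.95 per kb). Pax6, the eye and brain regulator, followed with 19969 bp (492 reads, 24.64 per kb). Pax7 had 18662 bp (520 reads, 27.86 per kb), Tfap2a 18190 bp (477 reads, 26.22 per kb) and Hoxc12 with Hoxc13 17477 bp (418 reads, 23.92 per kb). Nkx2-5 lay whole in 17331 bp (530 reads, 30.58 per kb), and Gbx2, which positions the boundary of midbrain and hindbrain, in 16279 bp (398 reads, 24.45 per kb). Barx1, a factor of stomach and teeth, and Dmrta2 lay whole in peaks of 15688 bp each (413 and 420 reads). Width did not go with density here, since the densities ran from 23.92 to 31.09 reads per kb with no order by width. After Tfap2a and Dmrta2, the widest peaks of other transcription factors were those of Gata4 of heart and endoderm (14153 bp), Nr2e1 (13069 bp), Fezf2, a factor of forebrain neurons (12882 bp), and Skor1, a corepressor of spinal neurons (12403 bp).

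By class, the median width was 8683 bp for homeobox peaks, 7083 bp for other transcription factors, 5587 bp for other protein-coding genes, 7037 bp for non-coding genes and 6211 bp where no gene was overlapped. The quartiles overlap between all the larger classes (6591 to 11074 bp for homeobox peaks and 5926 to 9575 bp for other transcription factors). Of the 51 peaks over 10000 bp, 30 were homeobox peaks, 15 were of other transcription factors and 6 of other classes. Median reads per kb were 26.38, 25.5, 24.68, 23.95 and 23.24 in the same order of classes.

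A broad peak usually concerned 1 gene. Of the 204 peaks, 160 (78.43%) overlapped exactly 1 protein-coding gene and 10 overlapped more. The peak over Hoxd12, Hoxd11 and Hoxd10 was the only one with 3 such genes, and no peak held 3 whole ones. A single peak held 2 whole genes, Gbx2 and its neighbour LOC102637806. Whole protein-coding genes lay inside 43 peaks (21.08%), 44 genes in all, which is 0.201% of all protein-coding genes. Of these 44, 27 were homeobox genes and 15 other transcription factors, with a median length of 3.784 kb, against 17.17 kb over all protein-coding genes. A short gene fits inside a peak more easily, so the length and the count are linked. In the other direction, 12 genes were overlapped by more than 1 broad peak, with 3 peaks each on Pax2 and Tbx5. Their peaks covered 21.49% of Pax2 and 21.68% of Tbx5, both genes of over 88 kb, but 88.04% of the short Pou4f1 and 89.7% of Emx2, each under 2 peaks.

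Broad peaks rarely stood alone. Another peak lay within 10 kb of 192 of the 204 (94.12%, 89.95 to 96.92), against 59.13% of the other peaks, and the median broad peak had 3 such neighbours. For 63 (30.88%) a neighbour was itself broad. Joining broad peaks within 50 kb of one another left 166 loci, of which 131 held 1 broad peak and the fullest 4. The peak over Rn18s-rs5 was among the 12 with no neighbour. By chromosome, 29 broad peaks lay on chromosome 2, 16 on chromosome 11 and 15 each on chromosomes 5 and 19. The last were 6.25% of the peaks of chromosome 19, against 3.39% of all peaks. None of the 31 peaks of the X chromosome was broad, and beside 3.39% a count of 0 among 31 is near the background.

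A listed protein-coding start lay inside 87 of the 204 broad peaks (42.65%), against 10.68% of the other peaks. Wider peaks have more room to hold one. The start table lists 117 of the 167 overlapped protein-coding genes, and the farthest upstream of the listed starts was used. It is not always the first base of the annotated gene, and for 25 of the 117 it lay over 1 kb inside the gene. Of the 117 starts, 89 lay inside a broad peak, 14 in a narrower peak and 14 in no peak. The 117 genes were kept because a broad peak overlaps them, so a high share inside is largely built in. The same 89 are 0.509% of all 17492 listed starts, and 4.08% of all listed starts lay in a peak of any width. By class, 49 of 59 homeobox starts and 33 of 44 starts of other transcription factors lay in the broad peak. A peak that holds a start reaches to both sides of it by construction, and the reaches together make up the peak width. In the 85 peaks with 1 start, the mark reached a median of 3510 bp upstream (quartiles 2073 and 5265) and 4849 bp downstream (3364 and 6636). The reach downstream was the longer in 53 of the 85, and in 27 it passed the far end of the gene. At Uncx it reached 9409 bp upstream and 16998 bp downstream, and at Nkx2-5, whose listed start lies 3423 bp inside the gene, 11444 bp upstream and 5886 bp downstream.

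**Figure D4:**
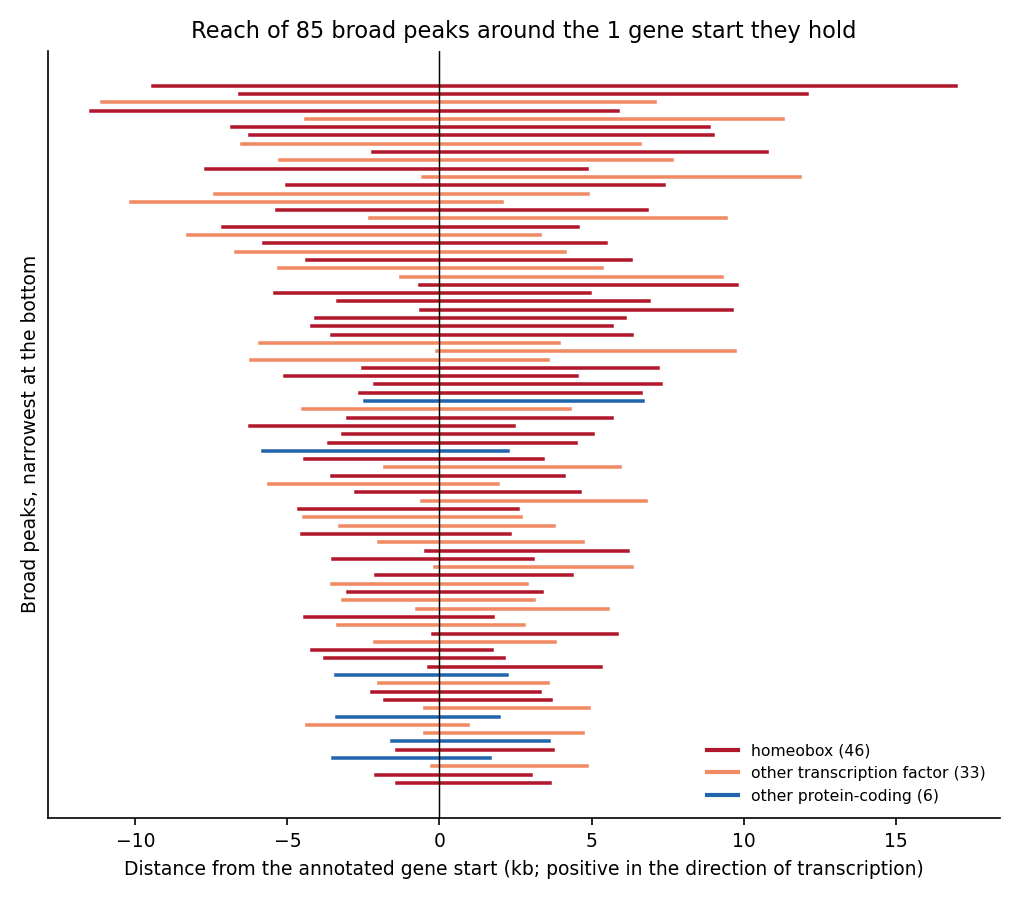
Each line is 1 of the 85 broad peaks that hold exactly 1 listed protein-coding start, drawn from its upstream to its downstream edge around that start (horizontal, kb, 0 at the start), widest at the top and coloured by gene class. Every line crosses the start because only peaks that hold it are drawn, and the medians are 3510 bp upstream and 4849 bp downstream.

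The 28 starts outside a broad peak lay a median of 3340 bp from it, and 17 of them within 5 kb. Gad1, the enzyme of GABA synthesis, started 74 bp from its broad peak and in no other peak, and the listed start of Pax9 lay 356 bp away, although the annotated gene begins inside the peak. Pax6, Tbx1, Sim1 and Sox14 started in a narrower peak upstream of the broad one, at 2724, 3681, 4093 and 2028 bp. At Cdkn2a, which encodes p16 and p19, the farthest listed start lay 14236 bp upstream of the broad peak and in no peak. A gene with several starts can have another one inside the peak.

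CpG content was then set side by side for gene starts in broad peaks and elsewhere. The median ratio of observed to expected CpG over the 300 bases was 0.731 at the 89 starts in broad peaks (quartiles 0.5735 and 0.8966), 0.666 at 625 starts in narrower peaks and 0.5671 at 16778 starts in no peak. A ratio above 0.6 was found at 70.79%, 60% and 47.8% of them. Among homeobox genes the medians were 0.767 in broad peaks, 0.7225 in narrower peaks and 0.4773 at the 80 starts in no peak. Among other transcription factors they were 0.7038, 0.6884 and 0.6823. These are descriptions without a test, since paralogous and neighbouring genes are not independent.

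**Figure D5:**
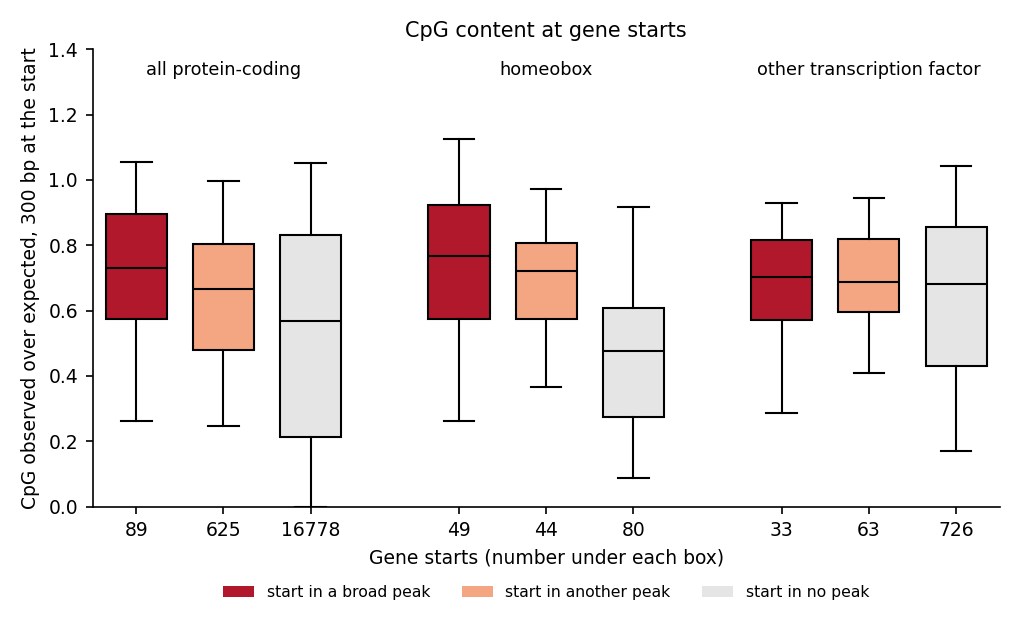
Ratio of observed to expected CpG (vertical) in the 300 bases at gene starts, for starts in a broad peak (dark red), in another peak (light orange) and in no peak (grey), over all protein-coding genes, homeobox genes and other transcription factor genes. Boxes show the median and quartiles, whiskers the 5th and 95th percentiles, and the numbers under the boxes count the starts; the medians over all genes are 0.731, 0.666 and 0.5671.

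Broad peaks whose protein-coding genes matched no symbol pattern of the other classes numbered 14. The patterns can miss a transcription factor or signal gene, so some of the 14 may belong to those classes. The widest lay over Slc32a1, the vesicular transporter of GABA and glycine (9144 bp, 267 reads), Cdkn2a (8135 bp, 196 reads), Erfl (8063 bp, 187 reads) and Gad1 (8049 bp, 228 reads). They were followed by Cbln1, which encodes a synapse organiser (7228 bp), and Nrn1, which encodes neuritin, a promoter of neurite growth (6211 bp). The other 8 were Pde10a, Ttll6, Igf2bp1, Pcca, Esrp1, Ajap1, Cyp26a1 and Dlgap2. Pcca lay beside Zic2, which was within 10 kb of the same peak.

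Of the 34 broad peaks without an overlapping protein-coding gene, most lay next to a transcription factor gene. Within 10 kb of them there was a homeobox gene in 14 cases, another transcription factor in 7, another protein-coding gene in 2 (Cbx8, a Polycomb subunit gene, and Igf2bp3) and none in 11. Among the widest, a peak of 11428 bp lay 4088 bp from Nkx2-3, one of 11427 bp lay over Vax2os and 3783 bp from Vax2, one of 10626 bp over Sox1ot and 2886 bp from Sox1, and one of 10253 bp 4346 bp from Barhl2. Peaks of 7658 and 6439 bp without any gene lay 1023 bp from En2 and 3024 bp from Neurog1, a gene of sensory neuron formation. A peak of 9475 bp overlapped Fendrr, a long non-coding RNA gene, 2496 bp from Foxf1. Counted within 10 kb, 176 of the 204 broad peaks (86.27%, 80.78 to 90.68) had a transcription factor gene of either class. Within 10 kb of the other peaks, the first class was homeobox in 9.271% and other transcription factor in 12.62%. The stretch searched is longer for a wider peak. For other peaks without an overlapping protein-coding gene, no such share is given here.

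The 11 broad peaks with no protein-coding gene within 10 kb included the peaks over Mir9-3, Mir9-1 and Mir124a-1 and 1 over Mirc35hg, the host gene beside Mir182, Mir96 and Mir183 (8972 bp, 258 reads). A peak of 11060 bp lay over 3 transfer RNA genes (chr3:96330129-96341188, 241 reads). A peak of 8396 bp over AW047730 lay beside the Mir9-1 peak, and peaks of 6257 and 6021 bp lay over Gm41854, with Pax2 the nearest protein-coding gene at 70780 bp, and over Gm46873, with Pax7 nearest at 15596 bp. In 2 cases no gene of any type lay within 10 kb, a peak of 9324 bp 41597 bp from Ostm1 (chr10:42627996-42637319, 251 reads) and one of 5484 bp 66892 bp from Spaca7 (chr8:12500661-12506144, 113 reads). The last was the peak over Rn18s-rs5 and AY036118 at 884.8 reads per kb, whose nearest protein-coding gene, Esp38, lay 101505 bp away. By its symbol Rn18s-rs5 is related to 18S ribosomal RNA, but the annotation lists no gene under a broad peak as ribosomal RNA. Ribosomal RNA genes exist in many near-identical copies, of which an assembly holds few, and the sources used here do not say how reads from them were assigned. Long non-coding RNA genes were overlapped by 97 broad peaks (47.55%), against 17.77% of the other peaks, and microRNA genes by 3 (1.471%), against 0.3612%. These shares use the whole peak, and a wide peak has more room to overlap such genes. In the central 500 bp, 15.69% of broad peaks overlapped non-coding genes only. The share was 13.82% for peaks above 2000 up to 5000 bp.

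The width limit of 5000 bp cuts through a continuous range. Just above it lay peaks over Dlgap2 (5011 bp, 21.75 reads per kb), Prdm14 (5030 bp, 24.65), Sim2 (5036 bp, 23.63) and Hoxa3 with Hoxa6 (5046 bp, 18.43). Just below it lay a peak in no gene on chromosome 4 (4978 bp, 20.29 reads per kb) and peaks over Wnt9b and Wnt3 (4943 bp, 24.88), Prdm8 (4936 bp, 21.07), Otx2 (4929 bp, 21.91) and Pou2f2 (4889 bp, 21.48). Of these peaks, the one over Hoxa3 and Hoxa6 had fewer reads per kb than all those named below the limit, and the others above the limit lay within their range of 20.29 to 24.88.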

How the data were processed

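H3K27me3 ChIP-seq was done on mouse sciatic nerve with a matched input. Chromatin was crosslinked and sonicated to fragments of 0.5 to 2 kb, per the labels' protocols, which limits how finely a peak edge is placed. Bowtie and mm10 are named in the submitters' processing notes. The sources do not say which program called peaks, at what threshold, or whether the input served as control, and the input was not analysed here. The deposited score per peak was divided by its step to give reads, with 10 reads the lowest in the list. Peaks were kept as the authors listed them, and positions are 1-based on mm10. Genes (49943, of which 21887 protein-coding) and starts (17492 protein-coding) came from RefSeq tables of GRCm38.p6. Overlap meant at least 1 bp. Gene classes were symbol patterns, so a class can miss members. Members and lists were chosen with earlier results of these data known. Named genes followed the rule of the widest peaks overall and by class, the densest and least dense peaks, peaks at the width limit and peaks without a protein-coding gene. Other genes, in families and the comparison of starts, were picked with their values in view. Some genes that meet the rule are not reported here. Printed starts are from the 3 widest homeobox and 3 widest other transcription factor peaks with a listed start inside; neither signal peak held a listed start. The central 500 bp was an alternative added after the data were seen, beside other width limits, joined peaks and stricter overlaps. Shares carry exact Clopper-Pearson 95% intervals, and for a share of 0 the largest share allowed was 3 counts of the total. Python 3.11.15, numpy, pandas 2.3.3 and scipy 1.17.1 were used, and the overlap code was tested on simulated data against bedtools. No p-values were computed, since there was 1 ChIP library.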

Additional observations from a re-analysis of the deposited data

How the results depend on the processing

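Of 75 alternative values for 10 results, 45 stayed within 1.5 times the count or inside the 95% interval of the main value, and 30 moved. For covered bases and reads, the interval treated each base or read as independent, which they are not. It was therefore very narrow (22.56 to 22.62% and 26.66 to 27.06%), and almost any change counted as moved. The tally is thus no measure of how robust the results are. The count of 204 broad peaks became 102 above 7500 bp, 51 above 10000 bp and 575 when peaks within 5 kb were joined. Covered bases in broad peaks (22.59%) became 27.77% above 4000 bp, 14.54% above 7500 bp, 8.756% above 10000 bp and 35.2% with peaks within 1 kb joined. Reads (26.86%) became 32.05%, 15.81%, 9.537% and 38.96% in the same settings, and 25.48% without peaks of over 52.42 reads per kb. Joining within 1 kb gave a median of 22.33 reads per kb, against 25.47, as gaps then count as width. The homeobox share of peaks (39.71%) became 50% above 7500 bp, 58.82% above 10000 bp, 25% when at least 50% of the gene had to lie in the peak and 30.88% in the central 500 bp (added after the data were seen). The share of other transcription factors (35.78%) became 14.71% with 50% of the gene and 26.96% in the central 500 bp. The signal share (0.9804%) became 0% above 7500 bp, above 10000 bp and with 50% of the gene, and 3.741% with peaks within 1 kb joined. The share over a protein-coding gene (83.33%) became 88.24% above 10000 bp, 40.69% with 50% of the gene and 94.61% within 10 kb. The share of homeobox genes overlapped (31.4%) became 20.54% above 7500 bp, 13.18% above 10000 bp, 40.31% with peaks within 1 kb joined and 20.54% with 50% of the gene. The median CpG ratio stayed between 0.7062 and 0.767. No paired analysis was possible because the ChIP group has 1 library and the input has no values here, and no replicate could be left out. Depth was not varied, so how far it sets widths and gaps between peaks was not tested.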
